A study of Mus musculus with 6 samples.

Results

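The transcripts of 8 genes that set cell volume were followed in bone-marrow-derived macrophages (BMDMs) exposed to high salt: the volume-regulated anion channel subunits *Lrrc8a*, *Lrrc8b*, *Lrrc8c* and *Lrrc8d*, and the SLC12 cotransporter genes *Slc12a2*, *Slc12a4*, *Slc12a7* and *Slc12a9*. They were selected by symbol in the authors' annotated table, and all 8 were among the 15903 genes tested, a set that left out genes with fewer than 10 reads in the 6 libraries together. Such cells develop when marrow is cultured with the growth factor M-CSF, here at 10 ng/ml in RPMI medium. The marrow came from 3 Cx3cr1GFP mice on the C57BL/6J background, which carry GFP in the *Cx3cr1* locus, and the age of the mice is not given in the sources used here. Cells of each mouse were left unstimulated (control, n = 3) or received 62 mM NaCl on top of that of the medium for 24 h (NaCl, n = 3). Only adherent cells were collected in both groups. NaCl was the single stimulus among these libraries, so an effect of sodium chloride and one of raised osmolarity cannot be told apart.

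A cell in hypertonic medium loses water and shrinks, and it regains volume by taking up ions, mainly through the cotransporter NKCC1 (*Slc12a2*), which carries sodium, potassium and chloride inwards, and through paired ion exchange. A swollen cell sheds ions by the opposite route, with chloride and organic osmolytes leaving through LRRC8 channels and potassium with chloride leaving through the KCC cotransporters, among them KCC1 (*Slc12a4*) and KCC4 (*Slc12a7*). An LRRC8 channel needs the LRRC8A subunit together with at least one of its relatives, and the relative sets what passes: channels with LRRC8D are known to pass uncharged osmolytes such as myo-inositol and taurine, and those with LRRC8C to pass cyclic dinucleotides. Kinases of the WNK, SPAK and OSR1 families switch NKCC1 on and the KCCs off by phosphorylation, which RNA levels do not show.

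Among the 8 genes *Lrrc8d* and *Slc12a4* passed an adjusted p of 0.05 in edgeR only once the mice were paired, and the other 6 did not pass in that fit. Neither call held in all 3 paired fits that each left out 1 mouse. *Lrrc8d* had a log2 fold change of -0.51 and was lower in the NaCl cells of every mouse, while *Lrrc8c* was at 0.36, *Lrrc8a* at 0.08 and *Lrrc8b* at 0.06. In the SLC12 family *Slc12a4* had a log2 fold change of 0.49 and was higher in the NaCl cells of every mouse, and *Slc12a2* was at -0.26. In edgeR's quasi-likelihood test without a term for the mouse, none (0) of the 8 passed an adjusted p of 0.05, where 0.654% of all genes did (0.478% as higher and 0.176% as lower). At an unadjusted p under 0.05, 3 of the 8 passed in that test, against 12.6% of all genes. A replicate block for the mouse compares the cells of each animal with each other. In that fit 2 of the 8 passed in edgeR, *Lrrc8d* as lower and *Slc12a4* as higher, against 8.9% of all genes (4.6% as higher and 4.3% as lower). DESeq2 without the block called 0 of the 8, where it called 3.12% of the genes to which it gave an adjusted p (1.91% as higher and 1.21% as lower), and with the block it called *Lrrc8d* and *Slc12a4*, where it called 6.96% (3.9% as higher and 3.06% as lower). The median log2 fold change of the 8 was 0.07, beside -0.01 over all genes tested. In bulk RNA, fewer cells of a type and less RNA per cell cannot be told apart.

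**Figure D1:**
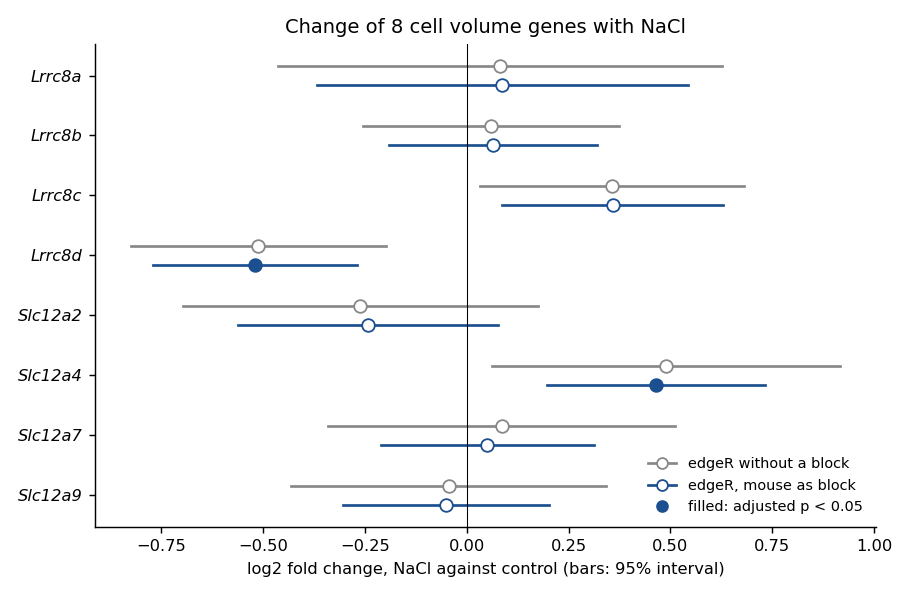
Log2 fold change (x axis) of each of the 8 genes (rows) in NaCl against control BMDMs from edgeR's quasi-likelihood test, without the mouse (grey) and with a block for the mouse (blue), with 95% intervals as bars and an adjusted p under 0.05 as a filled circle. Only *Lrrc8d*, at -0.52, and *Slc12a4*, at 0.46, are filled, both in the fit with the block.

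Between 4088065 (NaCl replicate 3) and 20123570 (control replicate 3) reads were counted in a library. All 6 macrophage markers were among the tested genes, and their summed level was from 14548 to 15937 CPM in control and from 23032 to 30577 CPM in NaCl, where *Lyz2* alone passed the threshold without the block and *Lyz2* and *Csf1r* with it, both as higher. The summed level of 4 monocyte markers was from 99.1 to 222 CPM in control and from 44.8 to 270.4 CPM in NaCl, and that of 7 neutrophil markers from 184 to 386 and from 201 to 318 CPM, with *Mpo* lower in the blocked fit. For 5 dendritic cell markers the sum stayed at or under 4.17 CPM. Of 12 markers of B cells, T cells, erythroid and stromal cells, 8 had at most 3 counts in any library, among them *Cd3e*. Their part in the results on the 8 genes was not tested.

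*Lrrc8b*, *Lrrc8c* and *Lrrc8d* lie next to each other on chromosome 5, all on the forward strand, and *Lrrc8a* lies apart on chromosome 2. In RefSeq's GRCm38.p6 annotation the first listed starts of *Lrrc8b* and *Lrrc8c* are 103.7 kb apart, and those of *Lrrc8c* and *Lrrc8d* are 180.5 kb apart. *Slc12a4* is on chromosome 8, *Slc12a7* on chromosome 13 and *Slc12a9* on chromosome 5. RefSeq promoter sequences were at hand for 7 of the 8 genes, with 9 start sites, and not for *Slc12a2*. The 250 bases before the start are shown for *Lrrc8c*, *Lrrc8d* and *Slc12a4*, the members with the largest changes in either direction, 5′ to 3′ on the strand of the gene, with CpG dinucleotides in capitals. These windows are chr5:105519221-105519470 (forward strand), chr5:105699719-105699968 (forward strand, the first of 2 listed *Lrrc8d* starts, 841 bases apart) and chr8:105966116-105966365 (reverse strand).
Lrrc8c: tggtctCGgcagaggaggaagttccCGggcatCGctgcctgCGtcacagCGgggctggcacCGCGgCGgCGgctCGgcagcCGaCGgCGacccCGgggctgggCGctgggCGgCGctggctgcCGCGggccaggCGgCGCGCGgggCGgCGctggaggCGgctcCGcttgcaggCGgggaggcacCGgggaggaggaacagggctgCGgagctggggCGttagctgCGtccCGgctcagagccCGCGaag
Lrrc8d: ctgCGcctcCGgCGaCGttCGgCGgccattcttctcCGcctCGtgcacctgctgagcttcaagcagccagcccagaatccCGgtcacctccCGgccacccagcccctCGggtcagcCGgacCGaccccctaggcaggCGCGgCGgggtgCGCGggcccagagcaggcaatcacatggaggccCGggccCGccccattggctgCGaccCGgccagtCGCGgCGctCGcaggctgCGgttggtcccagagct
Slc12a4: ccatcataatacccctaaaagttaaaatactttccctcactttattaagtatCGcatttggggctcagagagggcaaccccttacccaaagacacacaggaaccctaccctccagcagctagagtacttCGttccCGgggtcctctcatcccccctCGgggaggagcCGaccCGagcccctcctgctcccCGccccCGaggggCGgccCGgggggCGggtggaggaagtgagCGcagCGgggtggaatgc

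All 3 windows are rich in G and C, at 78.4% for *Lrrc8c*, 73.2% for *Lrrc8d* and 60.8% for *Slc12a4*, beside a median of 52.4% over 32851 windows of the same kind. The CpG count differed among the windows. *Lrrc8b* holds 43 CpGs, more than 99.3% of all windows do, *Lrrc8c* holds 35, the *Lrrc8d* starts 27 and 24 and *Lrrc8a* 25. The windows of *Slc12a4*, *Slc12a7* and *Slc12a9* hold from 13 in *Slc12a4* to 21 in the second start of *Slc12a7*, where the median of all windows is 6. That of *Lrrc8e*, which is not a member, holds 8. The letters TGGAAA, the core of the element bound by NFAT5, the transcription factor of the osmotic response, were searched on both strands and occur in 0 of the 9 windows, while 18.6% of all windows hold them. This says only that these letters are not within 250 bases before these starts, and *Slc12a2* was not searched.

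The level of each gene is given as CPM, the read count relative to the library's total after TMM scaling by edgeR, which compares libraries. Genes can be compared with each other only per length, and here the overlap with other genes mattered, because reads that fall on exons of more than 1 gene are not assigned by STAR's gene counting. Of the exon bases of *Lrrc8a*, 68.3% overlap another listed gene, nearly all of them *Gm28035*, a transcript model on the same strand that shares exons with *Lrrc8a*. *Gm28035* itself had 1 count over the 6 libraries. The count of *Lrrc8a*, 368 over the 6 libraries, was therefore collected on the remaining 1.364 kb of exon. Overlaps were smaller for *Slc12a4*, at 8.44% with the antisense gene *Gm16156* (9 counts in all), and *Lrrc8d*, at 1.73% with *Lrrc8dos* (5 counts in all), and 0% for the other 5 genes. Levels per length are therefore given as CPM per kilobase of exon not shared with another gene.

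On that scale *Slc12a4* was the most abundant of the 8 in control BMDMs, at 23.8 ± 2.47 CPM per kilobase (mean ± SD, n = 3), and *Slc12a2* the least abundant, at 1.87 ± 0.407. Between them came *Slc12a9* at 9.0 ± 1.58, *Slc12a7* at 7.95 ± 0.522, *Lrrc8d* at 7.14 ± 0.404 and *Lrrc8b* at 6.23 ± 0.558. *Lrrc8a*, at 4.04 ± 0.542, and *Lrrc8c*, at 3.58 ± 0.241, followed. The control libraries overlapped for *Slc12a9* and *Slc12a7*, for *Slc12a7* and *Lrrc8d*, and for *Lrrc8a* and *Lrrc8c*, so these neighbours were not set apart by their spread. The other neighbours did not overlap, but *Lrrc8d*, from 6.74, and *Lrrc8b*, up to 6.64, nearly met. Over all exon bases these 2 overlapped, with *Lrrc8d* at 6.62 in control replicate 1 and *Lrrc8b* at 6.64 in control replicate 3. In NaCl *Lrrc8d* had dropped to 4.99 ± 0.714 CPM per kilobase, below *Lrrc8b* at 6.53 ± 0.659 in every library, and within the range of *Lrrc8c* at 4.61 ± 0.507 and *Lrrc8a* at 4.3 ± 1.0.

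*Lrrc8d* (ENSMUSG00000046079.17) was at 83.2, 93.2 and 88.2 CPM in the control cells of mice 1, 2 and 3 and at 62.2, 70.1 and 52.5 CPM in their NaCl cells. Every NaCl library was below every control library. Control cells averaged 88.2 ± 4.99 CPM (SD, n = 3) and NaCl cells 61.6 ± 8.82 CPM. In edgeR's test without the block the log2 fold change was -0.51, with a 95% interval from -0.83 to -0.20 and an adjusted p of 0.162. With the block *Lrrc8d* fell by 0.52 on the log2 scale (edgeR, adjusted p = 0.00616). The log2 ratios of mice 1, 2 and 3 were -0.42, -0.41 and -0.75. The decrease was thus seen in each mouse and was largest in mouse 3, whose NaCl library had the fewest counts, 219 of *Lrrc8d*. After every library was thinned to 4088065 counts, the blocked fit gave -0.52 (adjusted p = 0.012 in edgeR). Without mouse 1 or without mouse 3 the blocked fit no longer passed, at adjusted p-values of 0.0571 and 0.086 in edgeR, and without mouse 2 it did, at 5.09e-05. Of its 75-base windows 3.78% also occur in other genes.

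*Lrrc8c* (ENSMUSG00000054720.13) was at 25.5, 27.5 and 29.2 CPM in the control replicates and at 35.0, 31.5 and 39.3 CPM in the NaCl replicates. Again the groups did not overlap, here with NaCl above control. Its log2 fold change of 0.36 (standard error 0.15, 95% interval from 0.03 to 0.68) reached adjusted p-values of 0.353 without and 0.092 with the block in edgeR, so it did not pass in either fit. It passed in edgeR with the block only once mouse 2 was left out (log2 fold change 0.45, adjusted p = 0.0149). *Lrrc8c* and *Lrrc8d* were 2 of the 8 genes whose groups did not overlap, where 21.4% of all genes with a mean of at least 50 counts were of that kind. With the mice paired, 3 of the 8 had a difference of the same sign in 3 of 3 mice, against 49.6% of such genes. Over all genes tested, 19% had groups that did not overlap, and 43.5% had a difference of the same sign in 3 of 3 mice, 20.1% as higher and 23.4% as lower.

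*Lrrc8b* (ENSMUSG00000070639.6), the subunit between these extremes, was at 37.6, 43.4 and 44.7 CPM in control and at 40.3, 42.5 and 48.9 CPM in NaCl. The groups overlapped, and the log2 fold change of 0.06 had a 95% interval from -0.25 to 0.37 in edgeR's test without the block. *Lrrc8a* (ENSMUSG00000007476.19), the obligatory subunit, had 44, 57 and 126 counts in control and 66, 52 and 23 counts in NaCl, or 5.0, 5.16 and 6.36 CPM against 7.38, 4.71 and 5.51 CPM. It was higher in NaCl in mouse 1 and lower in mice 2 and 3. The log2 fold change of 0.08 had a 95% interval from -0.46 to 0.63 in that test. *Lrrc8e*, the remaining family member, had 3 counts over the 6 libraries and was not tested.

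**Figure D2:**
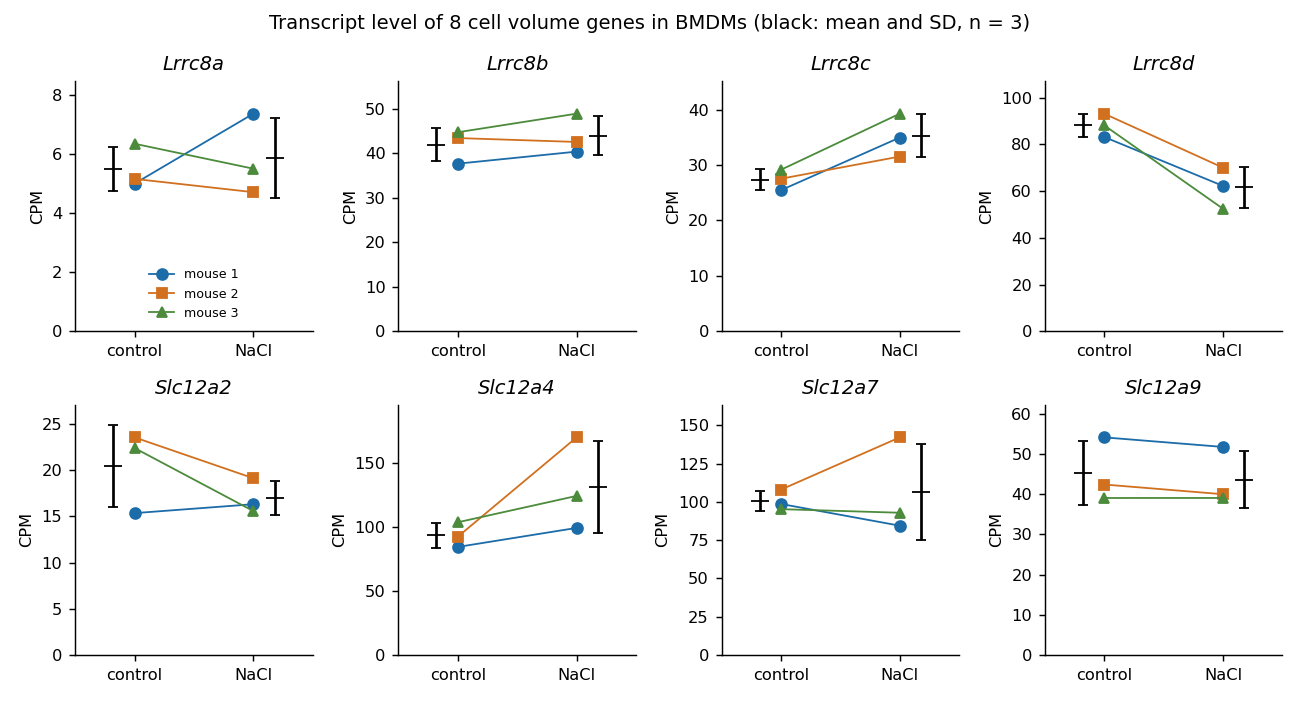
Transcript level in CPM (y axis, from 0) of each of the 8 genes in control and NaCl BMDMs, with lines joining the 2 libraries of a mouse and black bars for the mean and SD of 3 replicates. All NaCl points lie below the control points for *Lrrc8d* and above them for *Lrrc8c*, while the NaCl library of mouse 2 stands highest for *Slc12a4* and *Slc12a7*.

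The make-up of the LRRC8 RNA was also taken within each library, where scaling between libraries plays no part. The shares of a library are parts of the same total, so they are not independent of each other or of the CPM differences given above. The share of *Lrrc8d* in the LRRC8 counts per kilobase of unshared exon was 34.8%, 35.3% and 32.1% in the control cells of mice 1, 2 and 3 and 23.9%, 29.0% and 20.5% in their NaCl cells. That of *Lrrc8c* was 17.2%, 16.8% and 17.1% in control and 21.7%, 21.1% and 24.8% in NaCl. Neither subunit's groups overlapped. In control cells *Lrrc8d* was the largest part of the family, and in NaCl *Lrrc8b* was, at 32.0 ± 3.32% against 24.5 ± 4.25% for *Lrrc8d* (n = 3). *Lrrc8a* took 19.2 ± 1.64% in control and 21.0 ± 4.21% in NaCl. Counted over all its exon bases, shared ones included, *Lrrc8a* took only 7.05 ± 0.692% and 7.83 ± 1.85%, so its place in the family depends on how the shared exons are treated, while the shares of *Lrrc8c* and of *Lrrc8d* did not overlap between the groups on either scale.

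**Figure D3:**
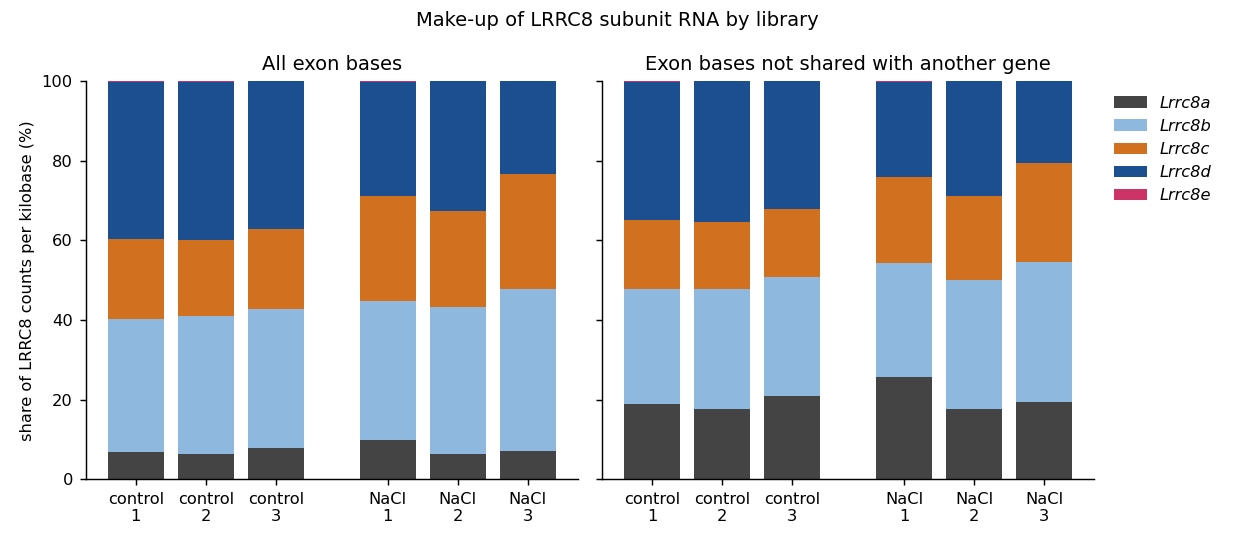
Share of each LRRC8 subunit in the summed LRRC8 counts per kilobase (y axis, percent) in every library, over all exon bases (left) and over exon bases not shared with another gene (right). In both panels the *Lrrc8d* segment is shorter and the *Lrrc8c* segment longer in each NaCl library than in any control library.

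The ratio of the read counts of a pair of genes in the same library was computed for all 28 pairs of the 8 genes, and in 9 of them (32.1%) the groups did not overlap, beside 22.5% of all pairs of genes with a mean of at least 50 counts. *Lrrc8d*, which like each of the genes enters 7 of the 28 pairs, was in 5 of these 9. Pairs that share a gene are not independent of each other or of that gene's own difference. The counts of *Lrrc8c* per count of *Lrrc8d* were 0.306, 0.295 and 0.330 in the control cells of mice 1, 2 and 3 and 0.562, 0.450 and 0.749 in their NaCl cells, a higher ratio in 3 of 3 mice. For *Slc12a2* per *Slc12a4*, the importer against its most abundant opponent, the values were 0.182, 0.255 and 0.216 in control and 0.165, 0.113 and 0.125 in NaCl, and the groups were again apart. They were not apart for *Slc12a2* per *Slc12a7*, at 0.156, 0.218 and 0.235 in control and 0.193, 0.134 and 0.168 in NaCl. That ratio was higher with NaCl in mouse 1 and lower in mice 2 and 3. The ratio of *Slc12a4* to *Slc12a7*, 0.854, 0.853 and 1.09 in control, was 1.17, 1.19 and 1.34 in NaCl. All pairs named here were chosen after their values were seen, and no test was run on them.

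**Figure D4:**
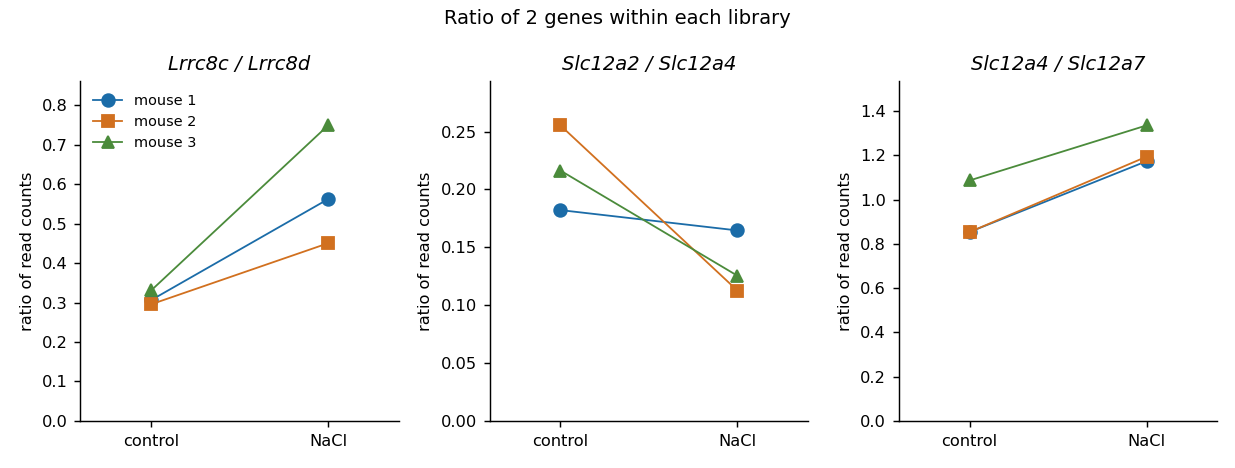
Ratio of the read counts of 2 genes within each library (y axis, from 0) in control and NaCl BMDMs, with a line for each mouse, for 3 pairs chosen after their values were seen. The NaCl points lie above all control points for *Lrrc8c* to *Lrrc8d* and *Slc12a4* to *Slc12a7*, and below them for *Slc12a2* to *Slc12a4*.

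*Slc12a4* (ENSMUSG00000017765.18), which encodes the widely expressed KCC1, was at 84.3, 92.2 and 103.5 CPM in the control replicates and at 99.1, 169.8 and 124.1 CPM in the NaCl replicates. It was higher in NaCl in every mouse, but NaCl replicate 1 lay below control replicate 3, so the groups overlapped. The mean was 93.3 ± 9.68 CPM in control and 131 ± 35.8 CPM in NaCl. In edgeR the difference passed with the block (log2 fold change 0.46, standard error 0.13, adjusted p = 0.0225) and not without it (0.49, standard error 0.19, adjusted p = 0.336). The log2 ratios of mice 1, 2 and 3 were 0.23, 0.88 and 0.26. Mouse 2 stood apart: without it the blocked fit gave 0.26 (adjusted p = 0.122 in edgeR), and without mouse 1 or mouse 3 it gave 0.59 and 0.57, both past the threshold.

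*Slc12a7* (ENSMUSG00000017756.10), the gene of KCC4, shared the high value of that library. It was at 98.7, 108.1 and 95.3 CPM in control and at 84.5, 142.2 and 92.9 CPM in NaCl, higher in mouse 2 and lower in mice 1 and 3. Its log2 fold change was 0.09 (95% interval from -0.34 to 0.51) in edgeR's test without the block and -0.18 without NaCl replicate 2. *Slc12a2* (ENSMUSG00000024597.12, on chromosome 18) was at 15.4, 23.6 and 22.4 CPM in control and at 16.3, 19.1 and 15.6 CPM in NaCl. It was lower in mice 2 and 3 and not in mouse 1, and its log2 fold change of -0.26 (95% interval from -0.70 to 0.17) did not pass with the block either (adjusted p = 0.396 in edgeR). *Slc12a9* (ENSMUSG00000037344.15), whose protein is related to the cotransporters and whose transport is less settled, was at 54.1, 42.4 and 39.0 CPM in control and at 51.7, 40.0 and 39.0 CPM in NaCl. Mice differed more than treatments did for this gene, with a log2 fold change of -0.04 (95% interval from -0.43 to 0.34).

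Of the other SLC12 genes, *Slc12a5*, known for its role in neurons, averaged 4.63 ± 1.63 CPM without and 5.50 ± 2.14 CPM with NaCl, and *Slc12a1*, *Slc12a3* and *Slc12a8* had 0 counts in every library.

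A wider list of 46 genes that act in volume regulation was examined by role, of which 37 were tested. None (0) passed in edgeR's test without the block, 7 had an unadjusted p under 0.05 (2 higher, 5 lower), where 12.6% of all genes did, and 1 gene, *Aqp9*, passed in DESeq2, where 3.12% did. In edgeR with the block, 1 was higher, where 4.6% of all genes were, and 4 were lower, where 4.3% were. The median log2 fold change of the 37 was -0.05.

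Of the 9 tested regulators of the WNK, SPAK and OSR1 pathway, 0 passed in edgeR or DESeq2 with or without the block, and 0 had an unadjusted p under 0.05 without it. The median log2 fold change was -0.05. In edgeR with the block *Stk39*, the gene of SPAK, was at -1.05 (unadjusted p = 0.02, adjusted p = 0.129). *Klhl3* was at 0.37 in that edgeR fit (unadjusted p = 0.0305, adjusted p = 0.169). *Stk39* had few counts, from 26 in control replicate 3 to 2 in NaCl replicate 3. DESeq2 gave no adjusted p to *Wnk2* and *Wnk4*, nor to *Stk39* with the block. Among 13 other chloride and anion channels and transporters, 3 were lower with the block and 0 higher, against 4.3% and 4.6% of all genes. These were *Pacc1*, the proton-activated chloride channel, *Ttyh2*, of the tweety family, and *Clcn5*, a chloride-proton exchanger of endosomes. *Pacc1* averaged 149.8 ± 8.43 CPM without and 114.5 ± 9.38 CPM with NaCl (blocked log2 fold change -0.39, adjusted p = 0.0323 in edgeR), *Ttyh2* 90.6 ± 7.36 and 68.7 ± 5.81 CPM (-0.40, adjusted p = 0.0303) and *Clcn5* 63.5 ± 7.38 and 48.1 ± 3.39 CPM (-0.40, adjusted p = 0.0463). With the block in DESeq2 none (0) of these 3 passed (adjusted p from 0.0548 to 0.152). For each of them the NaCl libraries lay below all control libraries. The groups did not overlap for 5 of the 13 genes of this list, against 19% of all genes tested. The blocked value of *Clcn5* was -0.24 without mouse 2 (adjusted p = 0.25 in edgeR), and it passed only without mouse 3 (adjusted p = 0.0392) of the 3 blocked fits that each left out 1 mouse. *Pacc1* passed only without mouse 2 (adjusted p = 0.00198), and so did *Ttyh2* (adjusted p = 0.00792), of the same edgeR fits.

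Of the 4 potassium channels tested, 0 passed in edgeR or DESeq2 with or without the block, 0 had an unadjusted p under 0.05 in edgeR without it, and *Kcnn4*, the channel for calcium-activated potassium efflux, averaged 342 ± 89.6 CPM without and 361 ± 148.5 CPM with NaCl. In the acid-base list 3 of 3 genes had higher CPM in NaCl in 3 of 3 mice, against 20.1% of all genes. Of these 3 genes, 1 passed as higher with the block, against 4.6% of all genes. That gene, *Slc4a7*, encodes a sodium-bicarbonate cotransporter rather than an exchanger, and was at 87.2, 93.5 and 94.5 CPM in control and at 111.8, 112.5 and 167.0 CPM in NaCl (blocked log2 fold change 0.48, adjusted p = 0.0132 in edgeR). It stood highest in NaCl replicate 3, and without mouse 3 its blocked value was 0.32 (adjusted p = 0.219 in edgeR). Without mouse 1 it was 0.55 (adjusted p = 0.0632). *Slc4a2*, the anion exchanger AE2, did not pass and averaged 99.4 ± 2.65 CPM without and 116 ± 16.6 CPM with NaCl (blocked log2 fold change 0.22, adjusted p = 0.298 in edgeR).

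The largest change of the 46 was that of *Aqp9*, an aquaglyceroporin that passes water, glycerol and other small solutes. It had 19, 56 and 103 counts in the control replicates and 10, 8 and 9 in the NaCl replicates, or 2.16, 5.07 and 5.20 CPM against 1.1, 0.725 and 2.16 CPM. Every NaCl library was below every control library, although control replicate 1 and NaCl replicate 3 nearly met. In edgeR with the block it fell by 1.74 on the log2 scale (adjusted p = 0.00147). Without mouse 2 it was -1.11 (adjusted p = 0.0554), and after thinning to 4088065 counts it was -1.31 (adjusted p = 0.104), both in edgeR with the block. *Aqp11* and the stretch- or swelling-sensitive channels *Trpv2*, *Trpv4*, *Trpm7* and *Piezo1* did not pass with or without the block, and *Aqp1* and *Aqp3* had 5 and 0 counts in all.

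**Figure D5:**
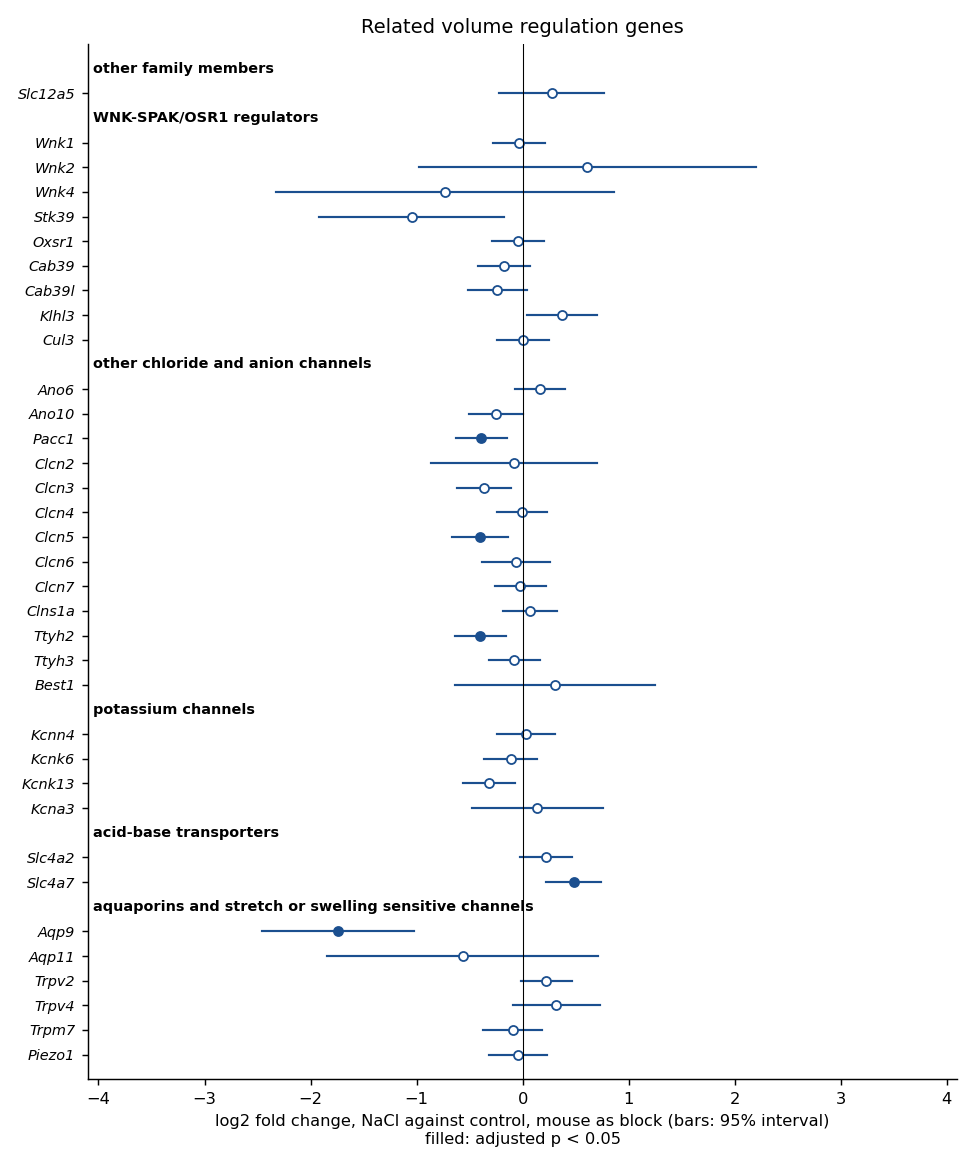
Blocked log2 fold change in NaCl against control (x axis, edgeR) of tested genes of the wider list, grouped by role, with 95% intervals as bars and an adjusted p under 0.05 as a filled circle. The filled genes are *Pacc1*, *Clcn5*, *Ttyh2* and *Aqp9*, which were lower, and *Slc4a7*, which was higher.

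The genes whose log2 CPM followed *Lrrc8d* most closely over the 6 libraries, among 9923 genes with a mean of at least 50 counts, were *Abcd3* (Pearson r = 0.999), *Tbc1d2*, *Serpine2*, *Fblim1* and *Naa80* (r = 0.988). Their own log2 fold changes ran from -0.24 for *Abcd3* to -1.36 for *Serpine2*. For *Lrrc8a* they were *Bin3* (r = 0.970), *Nme7*, *Actr6*, *Dtx4* and *Paxx* (r = 0.930). A correlation over 6 libraries that share mice and treatment is high for many genes, with 76 above 0.95 for *Lrrc8d* and 4 for *Lrrc8a*, so these are descriptions of likeness.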

How the data were processed

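RNA of 6 BMDM libraries was sequenced as 75 bp single-end reads with a kit that keeps no strand information. The authors trimmed reads with fastp 0.20.0, aligned them with STAR 2.7.10b and deposited the read count of each gene without normalization (STAR GeneCounts). They also deposited a normalized signal, the same counts divided by DESeq2 1.40.2 size factors, from which symbols were taken. It differed from the counts, after multiplication by 1 factor per library, by 9e-10 at most. The methods pair mm10 with a GENCODE release of another build, so genes are placed by chromosome, and lengths and overlaps came from an earlier GENCODE release on GRCm38.

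The 15903 of 57010 genes that reached 10 reads over all libraries entered edgeR 4.0.16 (glmQLFit, glmQLFTest, TMM, NaCl against control), adjusted by the Benjamini-Hochberg method over all of them with a threshold of 0.05. The methods name no mouse term, so a fit with a replicate block for the mouse stands beside it. The mouse numbers in the labels pair the libraries, and across genes the correlation of deviations from the group mean was 0.43, 0.15 and 0.22 for libraries of the same mouse and from -0.35 to 0.12 for the others. Intervals cover 95%, and log2 ratios within mice used a prior count of 2. Shares and ratios have no test. DESeq2 1.42.0, limma-voom (limma 3.58.1), other scalings and filters, thinning and leaving out libraries or mice were alternatives. R 4.3.3, Python 3.11.15 and matplotlib 3.10.9 were used, and the fits were tested on simulated data.

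The members and lists were chosen with earlier results of these data known. The text names every member, other family members, list genes past the threshold in either fit or used as role examples, and the 5 genes most correlated with *Lrrc8a* and with the member of lowest p. *Kcnn4*, *Slc4a2*, *Stk39*, *Klhl3*, *Wnk2*, *Wnk4* and the genes given only as not passing were named outside this rule, after their values were seen. Some genes of these lists are counted but not reported here by name.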

Additional observations from a re-analysis of the deposited data

How the results depend on the processing

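Calls on these genes changed with the mouse term. Without the block, the number of the 8 genes past the threshold was 0 higher and 0 lower in edgeR, and it was the same 0 in DESeq2, limma-voom, after scaling by size factors or by library totals, with the filter set to 1 read or to filterByExpr, after thinning, and when any 1 of the 6 libraries was left out. With the replicate block it was 1 higher and 1 lower in edgeR, in DESeq2 and after thinning. When a mouse was left out of the blocked edgeR fit, the number higher was 1 each time. That gene was *Slc12a4* without mouse 1 or mouse 3, and *Lrrc8c* without mouse 2. The number lower was 1 without mouse 2, for *Lrrc8d*, and 0 without mouse 1 or mouse 3. For the wider list, 0 higher and 0 lower became 1 higher and 4 lower with the block, 1 and 1 in DESeq2 with the block and with the block after thinning, 0 and 1 in DESeq2, and 0 and 1 with a minimum total count of 1, while leave-one-out fits gave at least 0 and at most 1 higher, and at least 0 and at most 2 lower. The cause was not tested.

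Direction was lost only for members near 0. *Lrrc8a* was at -0.12 after thinning, at -0.13 with the block after thinning, at -0.14 without NaCl replicate 1, and from -0.15 to 0.25 over all fits leaving out a library or a mouse. Over the same fits *Lrrc8b* ran from -0.017 to 0.12, *Slc12a7* from -0.18 to 0.24 and *Slc12a9* from -0.19 to 0.11. *Lrrc8c*, *Lrrc8d*, *Slc12a2* and *Slc12a4* kept their direction in all 19 alternatives. The difference in the *Lrrc8a* share of LRRC8 RNA, 0.779 percentage points, was within the spread of the libraries, from -0.268 to 1.5 when 1 library was left out and 1.77 over unshared exon, a scale chosen after the data were seen. The smallest library held 4088065 counts, and *Lrrc8a*, with 368 counts in all, had the largest standard error of the 8 genes, 0.24.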
